A study of Mus musculus with 18 samples.

Results

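Expression of 10 immediate early genes of the mouse was followed in RNA of the descending aorta: Fos, Fosb, Jun, Junb, Egr1, Egr2, Egr3, Atf3, Ier2 and Nr4a1. They are 10 of the 54281 genes in the table, each found by 1 Ensembl identifier, and all 10 had enough counts to be tested among 15210 genes. The genes were chosen by symbol as a textbook family while levels measured in these same mice were known, among them the wide spread of Fos between mice of one group. Their levels, differences and correlations are therefore given as a description, and no p-value is printed for them. In comparisons of groups, the number of them past a threshold is stated beside the share of all genes past it. No threshold was used, so no gene lies just inside or outside of one.

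Immediate early genes are transcribed within minutes of a stimulus, from factors already present in the cell, and their mRNAs are short-lived. In the vessel wall, growth factors, stretch, injury and inflammatory signals induce them through the MAP kinases, serum response factor and CREB. Most of them encode transcription factors. Fos and Jun proteins pair to form AP-1, Egr proteins are zinc finger factors, Nr4a1 is an orphan nuclear receptor, Atf3 is a stress-induced partner of Jun proteins, and Ier2 encodes a small nuclear protein.

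The study asked how arteries stiffen early in Hutchinson-Gilford Progeria Syndrome (HGPS), and RNA of the whole vessel wall was sequenced to search for regulators of lysyl oxidase. All mice were male and on the C57BL/6 background. The 6 HGPS mice carried the LMNAG609G mutation, which makes cells produce progerin, a truncated Lamin A, and were 64 to 75 d old. Of the 6 WT mice at 2 mo, 5 had an age of 62 d and 1 of 95 d, and the ages of the 6 WT mice at 24 mo were 609 to 762 d. The mutation sits at the endogenous Lmna locus, so progerin is made in every cell type that uses Lmna, and the mice of this model are homozygous by the study, while the labels name the allele alone. By the study's methods, mice were euthanized with CO2, a carotid artery was taken out first, the other arteries were perfused with PBS, and the descending aorta was then isolated and cleaned. Mice are named below by the replicate numbers of the labels. The time between death and lysis is not given in the sources used here.

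Totals ranged from 12413229 to 30844775 counts per mouse. The values are estimated counts, scaled here to CPM, which are counts relative to the library size as adjusted by TMM. The 7 smooth muscle markers summed to 19626 to 27376 CPM in HGPS, 29459 to 37974 CPM in 2-mo WT and 30446 to 34644 CPM in 24-mo WT, and none was at 0 in any mouse. Macrophage markers summed to 536 to 810 CPM in HGPS and 301 to 451 CPM in 2-mo WT, and brown fat markers to 455 to 1663 CPM in HGPS and 107 to 591 CPM in 2-mo WT. All 7 markers of both lists were higher in HGPS than in 2-mo WT by the test described below. In RNA of a whole vessel, fewer cells of a type and less RNA per cell cannot be told apart. The labels also carry a serial number of unstated meaning, which is 19 to 23 or 48 to 50 for HGPS, 41 to 46 for 2-mo WT and 24 to 34 for 24-mo WT. The last 2 ranges do not interleave, so age group and serial number cannot be told apart in WT mice.

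RefSeq promoter windows of GRCm38.p6, from 250 bases before to 50 bases after a start site, were found for 7 of the 10 genes: Fos, Fosb, Jun, Junb, Egr2, Atf3 and Nr4a1. They were searched on both strands for letters through which CREB-type, AP-1 and serum response factors are known to bind. TGACG, the core of the cAMP response element, was in the windows of 6 of these 7 genes, all but Jun, and in 20.8% of all 32851 windows. The full palindrome TGACGTCA, which contains TGACG on both strands, was in none of the 7 and in 2.03% of all genes with a window. The AP-1 letters TGANTCA were in none of the 7 and in 8.97% of all genes with a window. The CArG box, to which serum response factor binds, was in windows of Egr2 only, against 1.81% of all genes with a window. A match describes letters in a window and does not show that a factor binds there. Letters more than 250 bases upstream were not searched, so a gene without a match in its window can have one farther away. Egr1, Egr3 and Ier2 could not be searched. One stretch is shown for each gene with a match, on the strand of the gene and 5′ to 3′. TGACG (or CGTCA, the same letters on the other strand) is in capitals, because these 6 otherwise different promoters have it in common. The CArG box, found in Egr2 alone, is also in capitals.
Fos, chr12:85473812-85473841, plus strand: agttccgcccagTGACGtaggaagtccatc
Fosb, chr7:19310088-19310117, minus strand: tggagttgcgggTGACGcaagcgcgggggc
Junb, chr8:84978837-84978866, minus strand: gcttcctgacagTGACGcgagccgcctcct
Atf3, chr1:191183323-191183352, minus strand: ttaatagcattaCGTCAgcctgggattggt
Egr2, chr10:67537793-67537822, plus strand: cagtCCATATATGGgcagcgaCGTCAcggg
Nr4a1, chr15:101266794-101266823, plus strand: cccctctccatgCGTCAcggagcgcttaag
The match of Fos began 66 bases upstream of the start site, that of Fosb 60, that of Junb 106, that of Nr4a1 40 and that of Atf3 7 bases upstream. Nr4a1 had 4 matches in its window and Fos 2, of which the nearest to the start site is shown. Egr2 has several start sites, and the stretch shown is the one that held both motifs, 116 bases upstream of its start site for CGTCA.

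Fos (chr12:85473890-85477273), the founding subunit of AP-1, varied more between mice of one group than any other of the 10 genes. It ranged from 14.6 to 149 CPM in 2-mo WT (median 69.7) and from 14.4 to 35.5 CPM in HGPS (median 24.6). In 24-mo WT it ranged from 11.4 to 517 CPM (median 194), a 45.4-fold span within a group. The HGPS mice lay in or just below the lower end of the 2-mo WT range, and 24-mo WT overlapped both groups because its mice 3 and 2 had 11.4 and 48.1 CPM. The log2 fold change was -1.59 (SE 0.64) for HGPS against 2-mo WT, 1.43 (SE 0.62) for 24-mo against 2-mo WT and -3.02 (SE 0.66) for HGPS against 24-mo WT.

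Fosb (chr7:19302696-19310051), a sister subunit that can stand in for Fos in AP-1, was lower in every HGPS mouse than in any 2-mo WT mouse. It ranged from 4.76 to 11.3 CPM in HGPS (median 8.28), from 13.9 to 45.8 CPM in 2-mo WT (median 20.3) and from 4.96 to 75.8 CPM in 24-mo WT (median 33.7). In 24-mo WT, 3 mice stood at or above 47.7 CPM and 3 at or below 19.8 CPM. The log2 fold change of HGPS against 2-mo WT was -1.52 (SE 0.49), and that of 24-mo against 2-mo WT was 0.67 (SE 0.47).

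Jun (chr4:95049034-95052222), the main partner of Fos proteins, was also lower in every HGPS mouse than in any 2-mo WT mouse. The 6 HGPS mice held between 47.8 and 74.8 CPM (median 58.0) and the 2-mo WT mice between 92.2 and 201 CPM (median 138). In 24-mo WT, 4 mice lay between 129 and 186 CPM and mice 2 and 3 had 49.1 and 49.5 CPM, which is inside the HGPS range. Jun fell by 1.29 on the log2 scale in HGPS against 2-mo WT (SE 0.28), and its difference between WT ages was -0.23 (SE 0.28, 95% interval -0.82 to 0.36).

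Junb (chr8:84974484-84978718), a Jun subunit that often acts against Jun, was not ordered in this way. It ranged from 8.88 to 27.2 CPM in HGPS (median 15.3), from 6.99 to 15.8 CPM in 2-mo WT (median 10.7) and from 10.8 to 50.3 CPM in 24-mo WT (median 34.3). All 24-mo WT mice but mouse 3 were above every 2-mo WT mouse. The log2 fold change was 0.53 (SE 0.30) for HGPS and 1.504 (SE 0.30) for 24-mo WT, each against 2-mo WT.

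Atf3 (chr1:191170296-191218039), which represses or activates with Jun partners after stress, was the most abundant of the 10 genes per kb of annotated exons in both 2-mo groups. Atf3 had 82.4 ± 31.9 CPM per kb in 2-mo WT and 27.9 ± 5.52 CPM per kb in HGPS (SD, n = 6). Its HGPS values were close to each other, from 48.5 to 75.4 CPM (median 54.4), and lay below all 2-mo WT values, from 103 to 290 CPM (median 158). The 24-mo WT mice spread from 9.55 to 242 CPM (median 110.5) and overlapped both. Atf3 fell by 1.56 on the log2 scale in HGPS against 2-mo WT (SE 0.47). It was the one gene of the 10 whose interval for HGPS against 24-mo WT included 0 (-0.85, SE 0.46, 95% interval -1.84 to 0.14). HGPS mice numbered 19 to 23 had 52.7 to 54.5 CPM and those numbered 48 to 50 had 48.5 to 75.4 CPM. For Atf3, Jun and Fosb no HGPS mouse reached the 2-mo WT range, so neither set of numbers could. This split therefore says nothing about the part of the serial number, which was not tested.

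**Figure D1:**
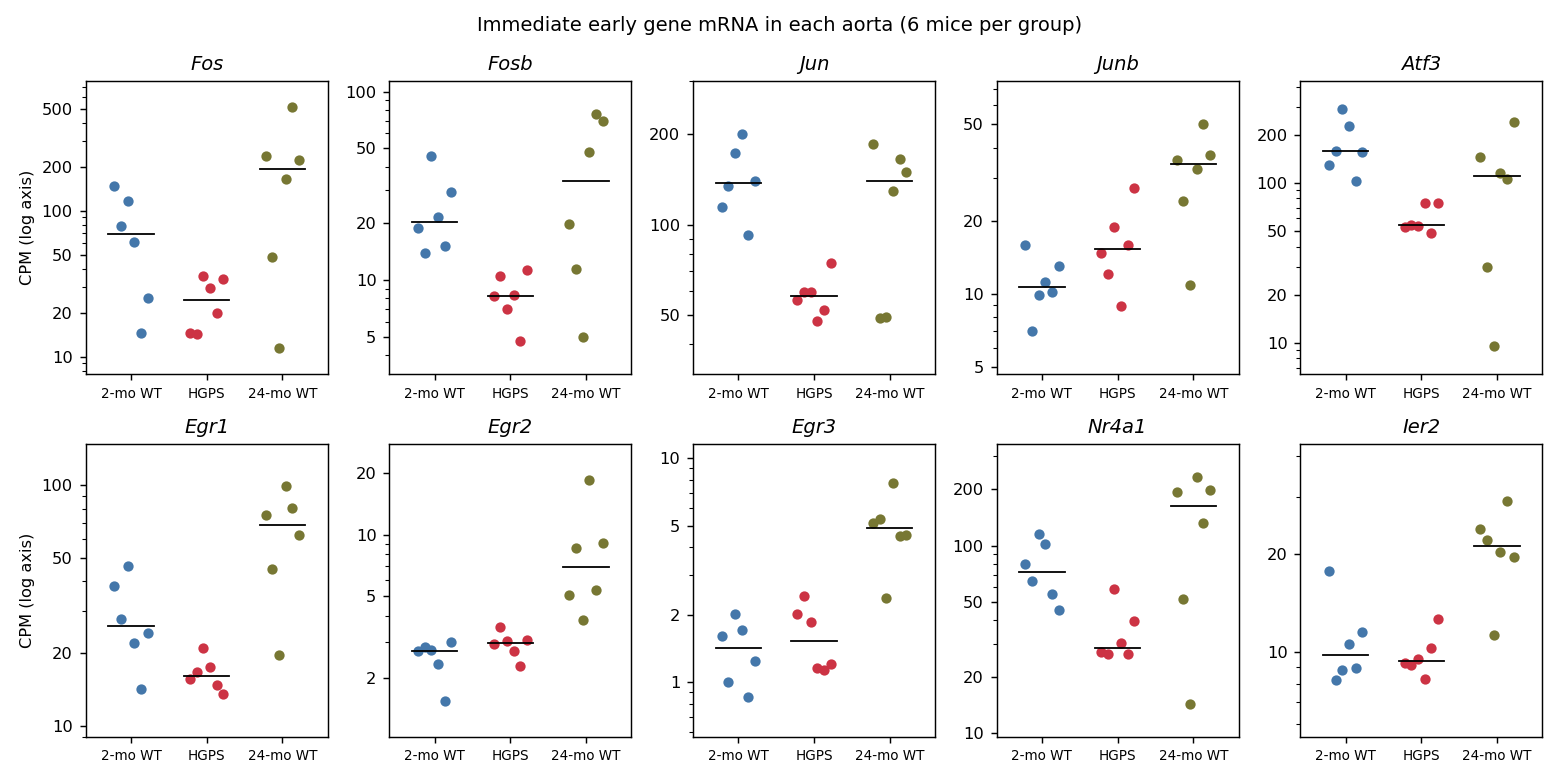
CPM of the 10 genes (log axis, with its own range in each panel) in each of the 18 mice, by group; a point is 1 mouse and the line is the median of 6. Atf3, Jun and Fosb of HGPS mice lie below all 2-mo WT mice, and Egr2 and Egr3 of 24-mo WT mice lie above them.

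Of the 3 Egr genes, Egr1 (chr18:34859823-34864984), a zinc finger factor that is induced in injured vessels, had the highest level per kb in each group. Egr1 ranged from 13.5 to 20.97 CPM in HGPS (median 16.1), from 14.2 to 46.2 CPM in 2-mo WT (median 26.1) and from 19.7 to 99.4 CPM in 24-mo WT (median 68.5). Only 2-mo WT mouse 5, at 14.2 CPM, lay within the HGPS range, and the log2 fold change of HGPS against 2-mo WT was -0.80 (SE 0.30). The difference between WT ages was 1.14 (SE 0.29).

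Egr2 (chr10:67535475-67542188), which directs myelination by Schwann cells, had low levels in both young groups. It had 2.30 to 3.53 CPM in HGPS (median 2.97) and 1.55 to 3.00 CPM in 2-mo WT (median 2.72), and the log2 fold change was 0.21 (SE 0.30, 95% interval -0.44 to 0.85). In 24-mo WT it had 3.83 to 18.5 CPM (median 6.98), above every mouse of the other groups. The log2 fold change against 2-mo WT was 1.73 (SE 0.30). Of 4 nerve markers tested, 3 were also called higher at 24 mo, Mbp (0.76) and Prx (0.37) among them, where 6.29% of all genes were. Pmp22 (-0.52) was called lower, where 5.38% of all genes were. The part of these markers in the level of Egr2 was not tested.

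Egr3 (chr14:70077203-70082614) encodes a close relative with overlapping targets. It had 1.13 to 2.44 CPM in HGPS (median 1.53), 0.856 to 2.03 CPM in 2-mo WT (median 1.42) and 2.38 to 7.74 CPM in 24-mo WT (median 4.86). All 24-mo WT mice were above all 2-mo WT mice, with a log2 fold change of 1.82 (SE 0.28), while HGPS and 2-mo WT overlapped in part (0.22, SE 0.28). HGPS mice numbered 48 to 50 had 1.13 to 1.21 CPM and those numbered 19 to 23 had 1.86 to 2.44 CPM, without overlap. The part of the serial number in Egr3 was not tested. Egr3 had 16 to 142 counts per mouse and was the least abundant of the 10 genes per kb in each group.

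Nr4a1 (chr15:101254269-101274795) encodes an orphan nuclear receptor that restrains smooth muscle growth and macrophage inflammation. It had 26.4 to 58.4 CPM in HGPS (median 28.6), 45.2 to 115 CPM in 2-mo WT (median 72.5) and 14.4 to 233 CPM in 24-mo WT (median 162). HGPS mouse 3, at 58.4 CPM, was the one that reached into the 2-mo WT range. The log2 fold change of HGPS against 2-mo WT was -1.15 (SE 0.44), and that of 24-mo against 2-mo WT was 0.83 (SE 0.43).

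Ier2 (chr8:84661331-84662852) had the smallest spread between mice of the 10 genes. It had 8.28 to 12.7 CPM in HGPS (median 9.41), 8.23 to 17.8 CPM in 2-mo WT (median 9.78) and 11.3 to 29.2 CPM in 24-mo WT (median 21.2). The young groups overlapped, with a log2 fold change of -0.16 (SE 0.20, 95% interval -0.59 to 0.26), and this value changed sign, to 0.032, without 2-mo WT mouse 1. All 24-mo WT mice but mouse 3 were above every young mouse, and the log2 fold change against 2-mo WT was 0.93 (SE 0.20).

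Per kb of annotated exons, the order of the 10 genes in 2-mo WT was Atf3, Jun, Fos, Nr4a1, Ier2, Egr1, Junb, Fosb, Egr2 and Egr3. All annotated exons of a gene were joined for this length, which can exceed that of its mRNA. The levels per kb of Jun (44.7 ± 12.3 CPM per kb) and Fos (31.5 ± 22.1 CPM per kb) differed by less than the SD of Fos but by more than that of Jun. Those of Ier2 (7.22 ± 2.34 CPM per kb) and Egr1 (6.43 ± 2.58 CPM per kb) differed by less than the SD of either. Fos was first in 24-mo WT, at 85.1 ± 76.5 CPM per kb, ahead of Atf3 at 50.2 ± 39.1 CPM per kb by less than the spread of either (SD, n = 6).

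Across genes, the comparison of HGPS with 2-mo WT asked what the mutation changes at a given age. With edgeR's quasi-likelihood test and a Benjamini-Hochberg adjusted p under 0.05, 5 of the 10 genes were called lower (Atf3, Egr1, Fosb, Jun and Nr4a1), where 21.2% of all genes tested were called lower, and 0 were called higher, where 22% were. Unadjusted, 6 had a p under 0.05, and DESeq2 also called Fos lower. The median log2 fold change of the 10 was -0.98, against 0.0026 over all genes tested. For 3 genes the groups did not overlap (Atf3, Fosb and Jun), against 21.9% of all genes. At the cut-offs that the study used (1.5-fold and an adjusted p below 0.001), 0 of the 10 were called with edgeR, against 9.5% of all genes in both directions. These values chose nothing by a threshold, but they come from the mice whose levels were known when the genes were picked, and nothing is read from the counts. Without HGPS mouse 1, 2, 5 or 6 or 2-mo WT mouse 1, 3 genes were called, and without 2-mo WT mouse 3, 2 were, Atf3 and Jun. With the mean levels of brown fat and of skeletal muscle markers as covariates, Jun alone was called (-1.39, SE 0.44), Atf3 was at -1.63 (SE 0.75) and Fosb at -1.20 (SE 0.80). Without covariates they had -1.29 (SE 0.28), -1.56 (SE 0.47) and -1.52 (SE 0.49), so each SE grew. The mean log2 CPM of brown fat markers was 4.72 to 6.78 in HGPS and 1.22 to 5.07 in 2-mo WT. It mostly followed genotype, so this fit can hardly separate the 2. The part of macrophage and fat markers in these differences was not tested further.

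The comparison of 24-mo with 2-mo WT asked what changes with age. Of the 10 genes, 5 were called higher (Egr1, Egr2, Egr3, Ier2 and Junb), where 6.29% of all genes were, and 0 were called lower, where 5.38% were. Unadjusted, 6 had a p under 0.05, and the median log2 fold change was 1.04 against 0.0083 over all genes. The 2 genes Egr2 and Egr3 passed the study's cut-offs (2% of all genes did) and did not overlap between the ages (6.28% of all genes did not). This comparison and that of HGPS share the 2-mo WT mice. Without 24-mo WT mouse 3, 7 genes were called, with Fos (1.68) and Nr4a1 (1.07) added. With the fat and muscle markers as covariates, Egr3 alone was called (1.81, SE 0.38) and Egr2 was at 1.42 (SE 0.42). Brown fat markers were called in neither direction between the ages. Skeletal muscle markers summed to 5.88 to 9.20 CPM in 24-mo WT and 3.79 to 5.35 CPM in 2-mo WT, without overlap, and 1 of the 4 tested, Ckm, was called higher (0.83, adjusted p = 0.00704).

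HGPS was also compared with 24-mo WT, to set premature beside natural aging. All 10 genes had lower levels in HGPS, and 9 of them, all but Atf3, were called lower, where 23.6% of all genes were and 23.8% were called higher. Egr1, Egr2, Egr3 and Ier2 passed the study's cut-offs (12.1% of all genes did), with log2 fold changes of -1.94 (SE 0.30), -1.52 (SE 0.29), -1.60 (SE 0.27) and -1.10 (SE 0.20). Egr2 alone had groups that did not overlap, against 22.2% of all genes. In each of the other 9 genes, 24-mo WT mouse 3 reached into the HGPS range or below it, and in Jun, Junb, Atf3 and Nr4a1 so did mouse 2. Without mouse 3, Atf3 was called as well (-1.09) and all 10 genes were. With the fat and muscle markers as covariates, 5 genes were called (Fos, Egr1, Egr2, Egr3 and Ier2).

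**Figure D2:**
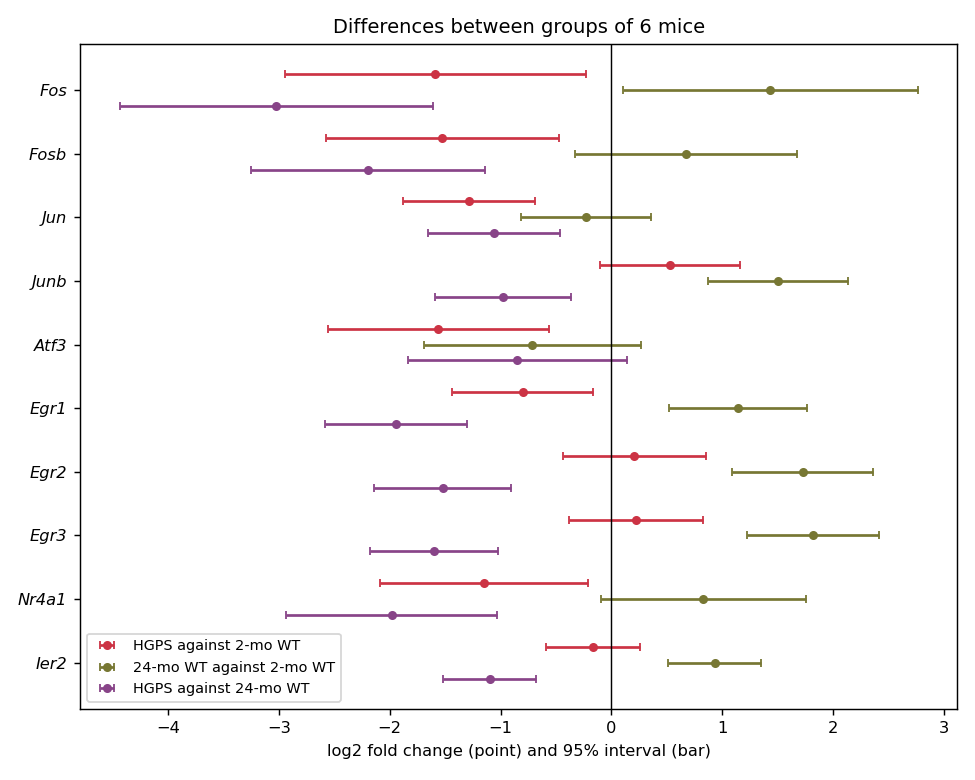
Log2 fold change of each gene (point) with its 95% interval (bar) in the 3 comparisons of 6 against 6 mice, from 1 edgeR fit of all 18 mice. The intervals of Atf3, Jun, Fosb, Fos, Nr4a1 and Egr1 lie to the left of 0 in HGPS against 2-mo WT. Those of Egr2, Egr3, Junb, Ier2, Egr1 and Fos lie to the right of 0 in 24-mo against 2-mo WT. All points of HGPS against 24-mo WT lie to the left.

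The spread between mice of one group was itself large. The within-group SD of log2 CPM was 1.41 for Fos, 1.06 for Atf3, 1.01 for Fosb and 0.99 for Nr4a1. It was 0.61 for Egr1, 0.59 for Junb, 0.57 for Jun, 0.51 for Egr2, 0.48 for Egr3 and 0.37 for Ier2. The median over the 10708 genes whose mean count was 100 or more was 0.163 and the 90th percentile 0.331, and Fos ranked 26th among them. Egr2 and Egr3 averaged fewer counts than this class. Among all 15210 genes tested, whose median was 0.208 and which include many of low count, Fos lay at percentile 99.1 and Egr1 at 90.3, while Junb (89.5), Jun (88.4), Egr2 (84.9), Egr3 (82.7) and Ier2 (73.7) were below the 90th percentile. In each gene but Junb and Egr3, HGPS had the smallest SD of log2 CPM of the 3 groups. For Atf3 these SDs were 0.27 in HGPS, 0.54 in 2-mo WT and 1.73 in 24-mo WT, and for Egr1 0.22, 0.60 and 0.84.

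The same mice were high or low in most of the genes. The 24-mo WT mouse 3, the youngest of its group at 609 d, had the lowest level of its group in 9 of the 10 genes, and its mean deviation from the group means was -1.80 on the log2 scale. The other gene was Jun, in which mouse 2 was lowest (49.1 against 49.5 CPM). Mouse 2 of that group, at 651 d, deviated by -0.57, and mouse 1, also at 651 d, by 0.40. The 3 mice of 748 and 762 d deviated by 0.64 to 0.67. In 2-mo WT, mouse 5 was below the group mean in all 10 genes and lowest in 6 (mean deviation -0.67), and mouse 3 was highest in 5 (0.49). The HGPS mice stayed between -0.25 and 0.27.

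**Figure D3:**
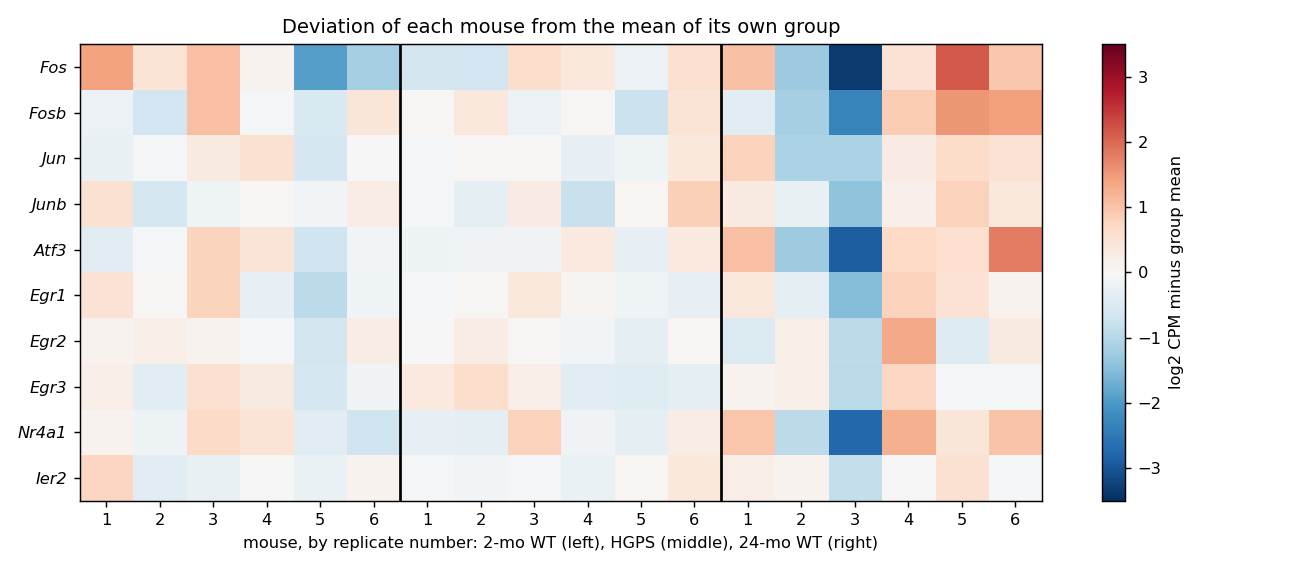
Difference of log2 CPM from the mean of the mouse's own group (color, blue for lower and red for higher) for the 10 genes in 18 mice, with lines between the 3 groups. The column of 24-mo WT mouse 3 is blue in all 10 genes, and the HGPS columns in the middle are the palest.

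Correlations between genes over mice were taken on these deviations, so that differences between groups did not enter. Over the 45 pairs of genes, the median Pearson r was 0.64 (0.21 to 0.91, all 45 above 0) and the median Spearman rho was 0.46, with 18 mice each. All pairs share the same libraries, and deviations within 3 groups leave 15 degrees of freedom. Among all pairs of these 10708 genes, the median r was 0.00, and 2.54% were at or above the median of the 10 genes. Without the 2 mice farthest from the median, 24-mo WT mouse 3 and 2-mo WT mouse 5, the median r fell to 0.31 (-0.30 to 0.84, 34 of 45 above 0), and without 24-mo WT mouse 3 alone it was 0.38. The size of the median therefore rested on these mice. By group, the median r was 0.83 in 24-mo WT, 0.49 in 2-mo WT and 0.20 in HGPS, each over 6 mice.

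Several pairs were less dependent on those mice. Jun and Atf3, which can form a dimer, had r = 0.88 with all 18 mice and 0.84 without the 2 farthest. Junb and Ier2, both on chromosome 8, had r = 0.86 and 0.77, and the same pair had 0.89 in 2-mo WT, 0.92 in HGPS and 0.92 in 24-mo WT taken alone. Atf3 and Nr4a1 had r = 0.91 and 0.76, and Jun and Nr4a1 had 0.81 and 0.73. Fos and Egr1, classical targets of serum response factor, had r = 0.87 and 0.64. In the HGPS mice alone, r was 0.25 for Jun and Atf3, 0.19 for Atf3 and Nr4a1, 0.42 for Jun and Nr4a1 and 0.24 for Fos and Egr1.

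Egr2 and Ier2 stood at the other end. Their mutual r was 0.21 with all mice and -0.30 without the 2 farthest. Against the mean of the other 9 genes, r ran from 0.92 for Nr4a1 and 0.89 for Atf3 down to 0.59 for Ier2 and 0.48 for Egr2. Without the 2 farthest mice these were 0.82, 0.68, 0.09 and -0.04, in that order. Egr2 and Egr3 were correlated with each other (0.67, and 0.45 without the 2 farthest).

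**Figure D4:**
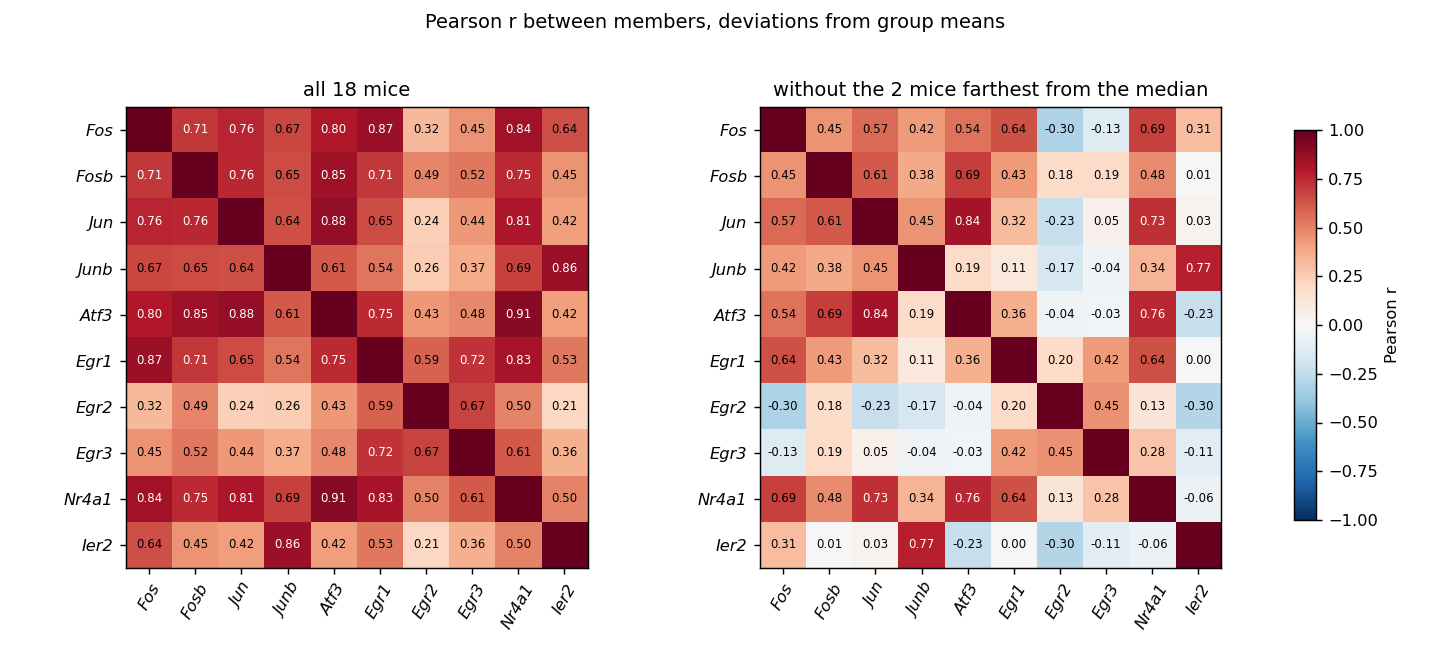
Pearson r (color and number) between the 10 genes on deviations from group means, with all 18 mice (left) and without 24-mo WT mouse 3 and 2-mo WT mouse 5 (right). All pairs are above 0 on the left, and on the right Fos, Fosb, Jun, Atf3 and Nr4a1 keep r of 0.45 to 0.84 among themselves while most pairs with Egr2, Egr3 or Ier2 are at or below 0.20.

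The mean deviation of the 10 genes was set beside other measures of the same mice, as a description over 18 mice with shared libraries. It had r = 0.75 with age in days, also taken as a deviation from the group mean (0.57 without the 2 farthest mice). Ages ran from 609 to 762 d in 24-mo WT, but only from 64 to 75 d in HGPS and 62 to 95 d in 2-mo WT. The r with age therefore rested mainly on the 6 mice of 24-mo WT. The mean deviation had r = -0.07 with log2 total counts and 0.50 with the percentage of mitochondrial counts. That percentage ranged from 3.15 to 4.66% in 2-mo WT, 4.47 to 7.80% in HGPS and 4.03 to 7.13% in 24-mo WT. The mean deviation of the 10 genes had r = -0.57 with macrophage markers, 0.54 with white fat markers, 0.56 with nerve markers, 0.14 with brown fat markers and -0.36 with smooth muscle markers. With the mean of 16 feedback inhibitors, which cells switch on together with immediate early genes to end the response, r was 0.90, and 0.84 without the 2 farthest mice. This was the highest r of the gene lists. With other immediate early genes r was 0.72 (0.42 without those mice), and with sister genes of the same families 0.52 (0.06). With secreted and surface response genes it was 0.79 (0.66), and with AP-1 targets -0.33 (-0.26). With glucocorticoid response genes it was -0.55. The part of age, RNA quality, cell makeup or steroid response in the spread was not tested.

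Of all other genes in this abundance class, the 15 most like the mean of the 10 were Gas2l3, Ccn1, Crebzf, Btg2, Fnbp4, Mapk6, Pard6g, Slc1a5, Abca1, Rel, Bche, Nfkbiz, Pde4b, Otud1 and Srsf5, with r from 0.94 to 0.82 over 18 mice. Ccn1, a secreted matrix protein, and Btg2, an antiproliferative cofactor, are immediate early genes themselves (r = 0.93 and 0.88, and 0.87 and 0.68 without the 2 farthest mice). Rel is an NF-kappaB subunit and Nfkbiz its nuclear regulator (r = 0.85 and 0.83). Fnbp4, a formin-binding protein, had the same r of 0.87 with and without those mice.

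Related genes were taken from textbook lists, and "rose", "fell", "higher" and "lower" stand for an adjusted p under 0.05. Of all genes tested, 22% were called higher and 21.2% lower in HGPS against 2-mo WT. The shares were 6.29% and 5.38% in 24-mo against 2-mo WT, and 23.8% and 23.6% in HGPS against 24-mo WT. Of 12 tested sister genes of the same families, 5 were called higher in HGPS than in 2-mo WT and 1 lower, with a median log2 fold change of 0.19. Fosl1, another Fos subunit, rose by 1.67 (SE 0.43, adjusted p = 0.00383), at the low means of 0.339 CPM in 2-mo WT and 1.11 CPM in HGPS. The 2 groups overlapped in Fosl1. Maff, a small Maf factor, rose by 1.38 (SE 0.18, adjusted p = 1.18e-05). Nr4a3 and Nr4a2, the other 2 receptors of the Nr4a family, rose by 1.08 (SE 0.30) and 0.70 (SE 0.24), with no overlap between the groups. Nr4a1 lay on the other side of 0 in the same mice. Jund, the Jun subunit that resting cells hold, fell by 0.64 (SE 0.24, adjusted p = 0.0393). In 24-mo against 2-mo WT, 3 sister genes were called higher and 0 lower: Ier5l (1.12, SE 0.32), Maff (0.88, SE 0.19) and Mafk (0.58, SE 0.09). Against 24-mo WT, HGPS had 2 higher (Fosl1 1.13, Maff 0.50) and 2 lower (Ier5l -1.44, Mafk -0.33).

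Of 33 other immediate early genes, 7 were called higher in HGPS against 2-mo WT, where 22% of all genes were. In that comparison 2 were called lower, where 21.2% of all genes were, and the median of the list was 0.19. Cebpb (1.07, SE 0.21), Myc (1.05, SE 0.25), Pim1 (0.98, SE 0.19) and Plk2 (0.96, SE 0.23), which serve inflammation, growth and survival, were higher. Npas4, a calcium-induced factor, was lower (-1.77, SE 0.37, adjusted p = 0.000899) at 0.414 against 1.44 CPM. In 24-mo against 2-mo WT, Arc, a target of Egr factors in neurons, rose by 2.14 (SE 0.40, adjusted p = 0.00126), from 6.34 to 28.1 CPM. Bhlhe40 (0.58) and Klf4 (0.37) were also higher, and Cited2 (-0.73) and Gadd45b (-0.68) were lower, and the median of the list was 0.12. These 5 calls became 2 or 3 when 2-mo WT mouse 3, 4 or 5 or 24-mo WT mouse 2 or 5 was left out. Against 24-mo WT, 8 were called higher in HGPS and 6 lower, where 23.8% and 23.6% of all genes were. Those of largest change were Npas4 (-1.87), Arc (-1.23), Gadd45b (1.13), Myc (0.97) and Cebpb (0.95).

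Feedback inhibitors of the response were compared with the same 2-mo WT mice. In 24-mo WT, 5 of 16 were higher, where 6.29% of all genes were, and 0 lower: Dusp6, a phosphatase of ERK (0.69, SE 0.12, adjusted p = 0.000784), Spry4 (0.65), Spry1 (0.52), Spred1 (0.35) and Nab1, a corepressor of Egr proteins (0.30, SE 0.06). In HGPS, 5 of 16 were higher, where 22% of all genes were, and 1 lower: Rgs2 (0.77), Tnfaip3 (0.68), Spry4 (0.51) and Dusp6 (0.40) were among those that rose, and Dusp10, a phosphatase of JNK and p38, fell by 0.92 (SE 0.29, adjusted p = 0.0144). HGPS against 24-mo WT had 2 higher and 4 lower, among them Nfkbia (0.78), Tnfaip3 (0.75), Dusp1 (-0.65), Dusp5 (-0.60) and Spry1 (-0.50).

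Among 24 upstream kinases and factors, 4 were called higher and 6 lower in HGPS against 2-mo WT, where 22% and 21.2% of all genes were. The median of the list was -0.07. Srf, which encodes serum response factor, had 40.8 CPM in HGPS against 63.7 CPM in 2-mo WT, with no overlap (-0.64, SE 0.08, adjusted p = 4.9e-06). Mrtfb, its actin-regulated cofactor, fell by 0.33 (SE 0.10), and Rps6ka5, which encodes the kinase MSK1, fell by 0.51 (SE 0.12). Rps6ka1, a ribosomal S6 kinase, rose by 0.94 (SE 0.17), and Crem, a CREB relative, by 0.30 (SE 0.11). Srf was also lower in HGPS than in 24-mo WT (-0.63, SE 0.08), as was Camk2d (-0.38), while Rps6ka1 (0.75), Crem (0.48) and Atf1 (0.30) were higher, and in all 5 were called in each direction. Smooth muscle markers, 5 of 7 of them called, were also lower in HGPS, and their part in the lower Srf was not tested. Between WT ages, 1 of the 24 was called, Rps6ka5 (-0.38, SE 0.12), and 3 had an unadjusted p under 0.05.

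AP-1 targets and secreted response genes lie downstream. Of 10 AP-1 targets, 7 were called higher and 1 lower in HGPS against 2-mo WT, where 22% and 21.2% of all genes were. The median of these targets was 0.64. Spp1, which encodes osteopontin, rose by 5.12 (SE 0.37), Mmp12 by 1.82, Timp1 by 1.68, Mmp13 by 1.68 and Cd44 by 0.65. In 2-mo WT, Spp1, Mmp12 and Mmp13 had means of 0.758, 0.650 and 0.178 CPM, against 26.5, 2.36 and 0.601 CPM in HGPS. Of 13 secreted and surface genes tested, 6 were called higher and 1 lower (median 0.79), where 22% and 21.2% of all genes were. Ccl2 (2.80), Ccl7 (2.22) and Cxcl1 (1.57), which attract leukocytes, and Thbs1 (1.41) and Has1 (1.31), which shape the matrix, rose. In 2-mo WT, Ccl2, Ccl7, Cxcl1 and Has1 had low means, of 0.393 to 0.564 CPM, against 1.39 to 2.86 CPM in HGPS. All 7 macrophage markers were higher in these mice, by a median of 0.83, and their part was not tested. In 24-mo against 2-mo WT, Spp1 (2.69), Mmp3 (0.95) and Ccnd1 (0.50) rose among AP-1 targets with 0 lower. Il1b (2.85, SE 0.83), Ccl2 (1.73) and Ereg (0.68) rose among secreted genes, and Edn1, the vasoconstrictor endothelin, fell by 1.11. Il1b was low, with means of 0.168 CPM in 2-mo WT and 1.31 CPM in 24-mo WT (SD 1.305 CPM). Against 24-mo WT, AP-1 targets had 3 higher and 2 lower in HGPS (Spp1 2.42, Timp1 1.67, Mmp9 -1.06, Cd44 0.68, Mmp3 -0.63), and among secreted genes Thbs1 (1.35), Ccl2 (1.07) and Edn1 (0.87) were higher and F3 (-0.997) was lower.

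**Figure D5:**
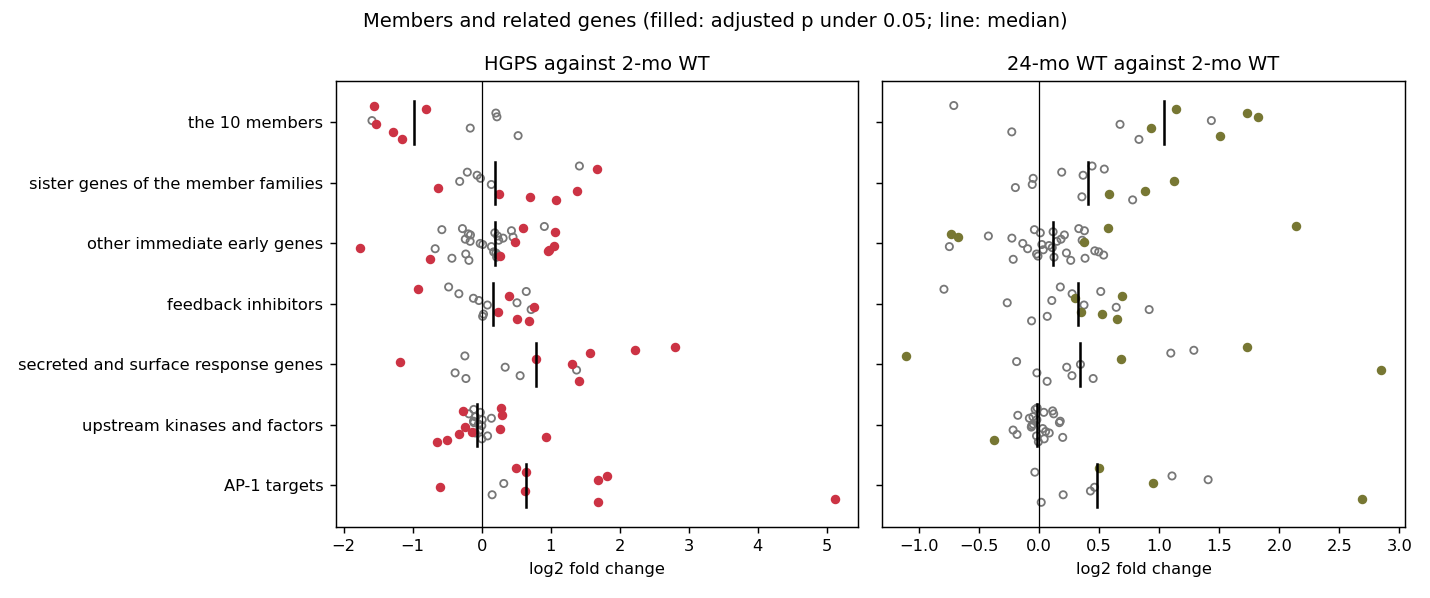
Log2 fold changes of the 10 genes and of 6 lists around them in HGPS (left) and 24-mo WT (right), each against 2-mo WT, with different axis ranges; a point is 1 gene, filled where the adjusted p was under 0.05, and the line is the median. In HGPS the median of the 10 genes is -0.98 and that of AP-1 targets 0.64, and at 24 mo the medians are 1.04 and 0.48.

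Glucocorticoid response genes and heat shock chaperones were set beside the 10 genes. Of 8 glucocorticoid response genes, 5 were called higher in HGPS than in 2-mo WT, where 22% of all genes were, and 0 lower (median 1.21). The 5 were Mt2 (2.12), Fkbp5 (1.66), Pdk4 (1.54), Mt1 (1.23) and Zbtb16 (1.19). Against 24-mo WT, 4 were higher (Mt2 1.97, Mt1 1.20, Pdk4 1.19, Sgk1 0.72), and between WT ages 0 of 8 were called with edgeR and 0 had an unadjusted p under 0.05. Of 11 heat shock chaperones, Hspe1 (0.64) and Hspd1 (0.37) were higher and Hspa1a (-1.33) and Dnajb1 (-0.73) lower in HGPS against 2-mo WT. Hspe1 (0.78), Hspd1 (0.41) and Hsph1 (-0.57) were called against 24-mo WT. Between WT ages edgeR called 0 chaperones, and 4 had an unadjusted p under 0.05.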

How the data were processed

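RNA of the descending aorta was measured in 18 mice. The authors assigned reads of stranded, ribosomal RNA-depleted libraries to GENCODE M23 transcripts (GRCm38.p6) with salmon, summed them per gene with tximport and tested them with DESeq2. The deposited values are estimated counts per gene, written as whole numbers and not normalized; whether they were rounded is not stated. The submitters' notes also name Bowtie 0.12.2, without a role. The 54281 identifiers were matched to GENCODE M21, on the same assembly (54107 found).

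The deposited counts were used as they stand. A gene was tested if 6 or more mice had 10 or more counts (15210 genes). The quasi-likelihood test of edgeR 4.0.16 (glmQLFit, glmQLFTest, R 4.3.3) used TMM library sizes, all groups in one fit and Benjamini-Hochberg adjustment over these genes. The SE was derived from the F statistic as the log2 fold change over its square root. Log2 CPM had a prior count of 2. The fits were tested on simulated counts. Groups and replicate numbers came from the labels. No 2 mice of a group agreed within sampling noise (45 pairs, chi-square over its degrees of freedom 7.56 to 83.4).

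The members and lists were chosen with earlier results of these data known. Named genes are the 10 members, in each list the called genes of largest absolute log2 fold change (up to 5 per comparison), and the 15 genes most correlated with the members. Alternatives covered DESeq2 1.42.0, limma-voom (limma 3.58.1), other size factors and filters, a replicate block, 2 groups alone, marker covariates, the study's cut-offs and each mouse left out. Some genes of the lists are not reported here.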

Additional observations from a re-analysis of the deposited data

Results flagged for a closer look

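Within the 30 sets of 6 mice (10 genes in 3 groups), 1 mouse stood apart from the other 5 by Dixon's test. Egr2 in 2-mo WT mouse 5 had a log2 CPM of 0.73, with the next mouse at 1.30, a gap of 0.63 of the range of the group. Chance gives such a gap in about 1 in 20 groups. The same mouse was below its group mean in all 10 genes.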

How the results depend on the processing

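Counts of the 10 genes called depended on the threshold and on the fit. At the cut-offs that the study used (1.5-fold, adjusted p below 0.001), 0, 2 and 4 were called in HGPS against 2-mo WT, 24-mo against 2-mo WT and HGPS against 24-mo WT (main counts 5, 5 and 9), and 3, 0 and 3 of the other immediate early genes (main counts 9, 5 and 14). With brown fat and skeletal muscle scores as covariates, 1, 1 and 5 of the 10 were called in the same order, and 2 and 6 of the other immediate early genes in the comparisons of 24-mo WT with 2-mo WT and of HGPS with 24-mo WT. The covariates reversed the sign of 2 uncalled changes in HGPS against 2-mo WT, Egr2 to -0.0698 and Egr3 to -0.067. The other immediate early genes called in HGPS against 2-mo WT rose to 15 with limma-voom and to 15 with the 2 groups alone, and those in 24-mo against 2-mo WT fell to 2 with the 2 groups alone. The cause was not tested. Leaving out 1 mouse gave 2 to 6 of the 10 genes in HGPS against 2-mo WT, 2 to 7 of the other immediate early genes in 24-mo against 2-mo WT, a range of -0.25 to 0.032 for the log2 fold change of Ier2 in HGPS against 2-mo WT, and a median correlation of 0.38 to 0.66. That median was 0.31 without the 2 farthest mice and 0.20 in HGPS alone.

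The replicate numbers were not taken to pair the mice. Same-numbered mice of 2 groups correlated above 0.1 in 4 of 18 cases (-0.34 to 0.30). Between HGPS and 2-mo WT every such correlation was positive (0.036 to 0.296). Mice of different numbers were not compared in this way, so these values cannot exclude a pairing. With a replicate block, 3 of the 10 genes were called in HGPS against 2-mo WT, with Egr1 (-0.78) and Nr4a1 (-1.14) lost, 5 in 24-mo against 2-mo WT and 9 in HGPS against 24-mo WT, and the median correlation was 0.71. Over all genes the block gave 6364, 1570 and 6973 calls against 6567, 1775 and 7201. Fos in HGPS against 2-mo WT was also called with DESeq2, with a looser count filter, with the 2 groups alone, and without 2-mo WT mouse 5 or 6 or 24-mo WT mouse 2, 3 or 5. No scaling moved the split of higher and lower calls by over 1 percentage point.

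Counting error is larger for the genes of low count: Egr3 rested on 16 to 142 counts per mouse and Egr2 on 29 to 339, and the SEs of both were close to those of Egr1, Junb and Jun. The 6 mice per group, the spread between them and the mixture of cell types in whole-vessel RNA also limit what can be seen. p-values cover the spread between these mice.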
